A study of Mus with 3 samples.

Results

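Heat shock and chaperone genes were followed through the cells of MC38 tumors. The 10 genes, of 32285 in the deposited matrix, are Hspb1, Hspa1a, Hspa1b, Hsph1, Dnajb1, Dnaja1, Hspa8, Hsp90aa1, Hspd1 and Hspe1. They were chosen by family after the RARα-KO to WT ratio of Hspb1 in CTLs had stood among the highest of these data, so the genotype ratios below describe the genes and were not tested. All 10 were found by their symbols. MC38 is a mouse colon cancer line, and the tumors were taken on day 16 for single-cell RNA and T cell receptor (TCR) sequencing, to see what a changed level of RARα, the retinoic acid receptor α, does to the infiltrating T cells.

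The WT controls of the study were C57BL/6 and dLck-Cre mice, and which of these bore the WT tumor was not given, so it may carry the Cre. In RARα-KO mice a Cre under the distal Lck promoter acts on a floxed Rara (Rara L/L), so the deletion is limited to T cells, and a Rara transcript that lacks an exon is still made there. In RARα-TG mice Rara is expressed under the CD2 promoter. Macrophages and tumor cells of the RARα-KO tumor were therefore not targeted by the deletion. The number of mice behind each genotype, and their age, were not given for these libraries in the sources used here. Each tumor was stained with its own hashtag antibody, 30000 T cells were sorted as CD45.2+ CD3+, 10000 unsorted cells were added, and the 3 genotypes were sequenced as 1 pooled 10x Genomics 5′ library. Each genotype is thus 1 sample, and no difference between genotypes below has a replicate or a test.

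Chaperones bind proteins that are unfolded or newly made and help them to fold. When unfolded proteins build up, the factor HSF1 switches on the inducible chaperone genes within minutes, and other members of the family are made at a high level in unstressed cells. T cells also raise several chaperones when they are activated, and the warming and digestion of tissue before a sort can induce the stress genes.

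In all, 5585 cells were called, with a median of 4823 UMIs (unique molecular identifiers, each standing for 1 captured transcript). By hashtag, 1927 were WT, 2103 were RARα-KO and 895 were RARα-TG, while 426 doublets and 234 cells without a hashtag were left out. WT cells had the least pure hashtag signal. Their top hashtag held a median of 81.9% of the hashtag UMIs in CTLs, against 95% in RARα-KO and 89.8% in RARα-TG CTLs. Rara itself stood at 87.4 CPM (UMIs of a gene for each 1000000 gene UMIs) in WT T cells (Poisson 95% interval 81.0 to 94.1), 80.0 CPM in RARα-KO T cells (74.7 to 85.6) and 249.8 CPM in RARα-TG T cells (232.8 to 267.7). A transcript without 1 exon can still be counted, so the RARα-KO value does not check that label.

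Levels were summed over 5 classes of cells. CTLs were cells of T cell clusters with a Cd8a UMI and no Cd4 UMI, with 842 WT, 1179 RARα-KO and 113 RARα-TG cells. CD4 T cells had a Cd4 UMI and neither Cd8a nor Cd8b1, and were split by a Foxp3 UMI. The Foxp3-positive class held 120 WT, 79 RARα-KO and 150 RARα-TG cells, and the Foxp3-negative class held 96, 167 and 111. Macrophages, led by Lyz2, Arg1 and C1qb, numbered 77, 127 and 35. The last class was led by Col3a1, Sparc and Tm4sf1 and held 272, 126 and 19 cells, but the epithelial markers Krt8, Krt18 and Epcam were each at 2.67 CPM or lower in it, so it is called MC38 or stromal cells. Its median depth was 30004, 30739 and 19337 UMIs for the 3 genotypes. CTLs had medians of 5668, 5572 and 4680. Where 3 values follow each other without a name, they stand in the order WT, RARα-KO, RARα-TG.

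Ratios are log2 ratios of CPM, and a gene counts as higher or lower at 1.5-fold or more, among genes with over 0.1 UMIs per cell in at least 1 of the 2 genotypes compared. All intervals are 95% intervals that cover counting error only, and neither the spread between mice nor the clustering of UMIs in few cells. Both genotypes are set against the same WT cells. A sum over a class cannot tell more transcripts in each cell from more cells that hold any, so shares of cells are given too. The 5′ counts of different genes are not compared with each other.

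The inducible Hsp70 genes Hspa1a and Hspa1b showed the widest differences in T cells, apart from Hspb1 in CTLs. They encode nearly the same protein, the stress-induced Hsp70, and lie side by side on chromosome 17 of GRCm38, Hspa1b (ENSMUSG00000090877) at 34956429 to 34959238 and Hspa1a (ENSMUSG00000091971) at 34969359 to 34972156, with 10120 bases between the gene models. Their transcripts are so alike that a count for either one rests on the stretches where they differ.

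In CTLs, WT cells had 38.1 CPM of Hspa1a (33.2 to 43.6), RARα-KO cells 169.9 CPM (161.1 to 179.1) and RARα-TG cells 174.2 CPM (142.5 to 210.9). RARα-KO was above WT by a log2 ratio of 2.16 (1.95 to 2.37), and RARα-TG by 2.19 (1.84 to 2.54). Only a minority of CTLs held an Hspa1a UMI, namely 4.39% of WT cells (Clopper-Pearson interval 3.11% to 6.01%), 22.9% of RARα-KO cells (20.5% to 25.4%) and 27.4% of RARα-TG cells (19.5% to 36.6%). In MC38 or stromal cells, which had next to none of it at a far greater depth, the share was 1.10% in WT, 3.17% in RARα-KO and 10.5% (2 of 19 cells) in RARα-TG. Free RNA, as seen in barcodes outside cells, held 111 CPM of Hspa1a and 329.5 CPM of Hspa1b, both above the WT CTL levels. Its part in the levels was not tested, beyond the Hspa1a level of 2.55 CPM in WT MC38 or stromal cells. For Hspa1b the same CTLs had 57.6 CPM (51.5 to 64.2) if WT, 270.6 CPM (259.3 to 282.1) if RARα-KO and 280.4 CPM (239.7 to 326) if RARα-TG. Both genotypes thus lay above WT for both genes, while their own intervals overlapped. RARα-TG against RARα-KO gave log2 ratios of 0.04 for Hspa1a (-0.26 to 0.32) and 0.05 for Hspa1b (-0.18 to 0.28). With only the deeper cells of the first calling step, the Hspa1a ratios to WT were 1.39 and 0.71, and with only cells whose top hashtag held 90% or more of the hashtag UMIs, which left 17 WT CTLs, they were 4.64 and 4.21.

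**Figure D1:**
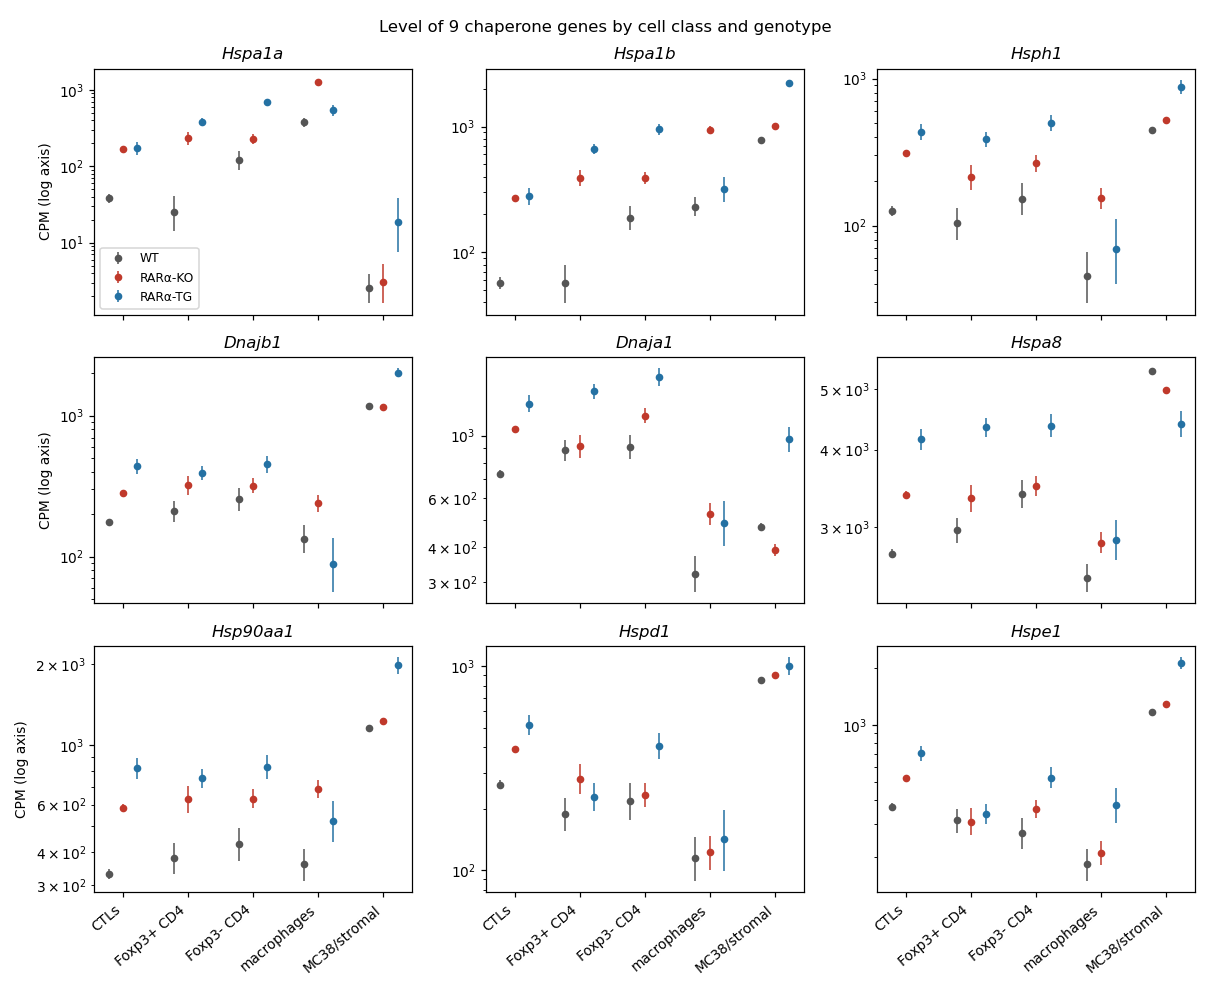
Level in CPM (log axis, which differs between panels) of 9 genes in 5 cell classes; points are sums over the cells of WT (gray), RARα-KO (red) and RARα-TG (blue), and bars are Poisson 95% intervals. WT is the lowest point in each T cell class for each gene but Hspe1, where Foxp3-positive cells of RARα-KO are at 309.1 CPM and those of WT at 313.5 CPM.

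CD4 T cells of both modified genotypes were above WT as well. How far depended on the setting. For RARα-KO, the Hspa1a ratio to WT ran from 0.11 to 1.36 in Foxp3-negative and from 0.57 to 3.59 in Foxp3-positive cells. For RARα-TG it ran from 1.76 to 4.28 and from 1.45 to 4.33. In Foxp3-positive cells Hspa1a was at 25 CPM for WT (14 to 41.3), 231 CPM for RARα-KO (191 to 278) and 385 CPM for RARα-TG (342 to 433), and Hspa1b was at 56.7, 391.0 and 666 CPM. In Foxp3-negative cells Hspa1a was at 120.5 CPM (90.2 to 158), 229 CPM (199 to 263) and 687 CPM (615 to 766), and Hspa1b was at 188.7, 389 and 948 CPM. Here RARα-TG was above RARα-KO for both genes and in both classes, with log2 differences for Hspa1a of 0.74 (0.42 to 1.06) in Foxp3-positive and 1.58 (1.32 to 1.84) in Foxp3-negative cells. CD4 T cells of the genotypes lay in different clusters. The cluster led by Rln3, Klrg1 and Laptm4b held 8, 3 and 125 of them, that led by Foxp3 held 131, 83 and 50, and that led by Tnfsf8, Tnfsf11 and Cd4 held 45, 105 and 36. The part of this spread in the values was not tested.

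Macrophages, whose Rara is not targeted in RARα-KO mice, had 375 CPM of Hspa1a if WT (327 to 428), 1286 CPM if RARα-KO (1214 to 1361) and 544.5 CPM if RARα-TG (456 to 645). For Hspa1b the values were 230.8, 943 and 317 CPM in the same order. RARα-KO was therefore above WT by 1.78 for Hspa1a (1.57 to 1.99) and 2.03 for Hspa1b (1.77 to 2.30), in the range of the CTL ratios. RARα-TG macrophages were 0.54 (0.22 to 0.86) and 0.46 (0.04 to 0.87) above WT. Under other settings these 2 ratios ran from 0.06 to 0.62 and from 0.43 to 0.93. The 8 T cell markers summed to 152.7, 658 and 121.9 CPM in macrophages of the 3 genotypes, with none of the 8 at 0, and the 13 macrophage markers summed to 26048, 13778 and 28142 CPM. The part of these shifts in the Hsp70 values was not tested. The 3 T cell classes of RARα-KO had 169.9 to 231 CPM of Hspa1a, against 1286 CPM in its macrophages.

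The balance of the pair differed in MC38 or stromal cells. They had Hspa1b at 783 CPM (764 to 801) in the WT tumor, 1014 CPM (984 to 1045) in the RARα-KO tumor and 2197 CPM (2049 to 2352) in the RARα-TG tumor, and 92.9% to 94.9% of them had a UMI. Hspa1a was all but missing from the same cells, at 2.55, 3.08 and 18.7 CPM, and 20 of the 22 WT UMIs came from 1 cell. The RARα-TG value rested on 7 UMIs. In these cells the 8 T cell markers summed to 19.8, 67.0 and 213.5 CPM, and the part of T cell RNA in the values was not tested. Of all UMIs of the pair, Hspa1a made up 0.324% (0.203% to 0.491%), 0.303% and 0.843%. It was 0.104% in the 85 cells of this class without a hashtag. In T cells the share was 30.6% to 42% over the 3 classes and 3 genotypes, and in macrophages it was 61.9% (56.6% to 67%), 57.7% (55.6% to 59.8%) and 63.2% (56.3% to 69.7%). T cells, macrophages and MC38 or stromal cells did not overlap in this share, while the intervals of the genotypes did within each class. In barcodes that held no cell it was 25.2% (17.7% to 34%). Within CTLs the share was 39.9% (35.7% to 44.1%), 38.6% (37% to 40.2%) and 38.3% (32.5% to 44.4%), so the genotypes were alike in the balance of the pair within counting error while they differed in its level.

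**Figure D2:**
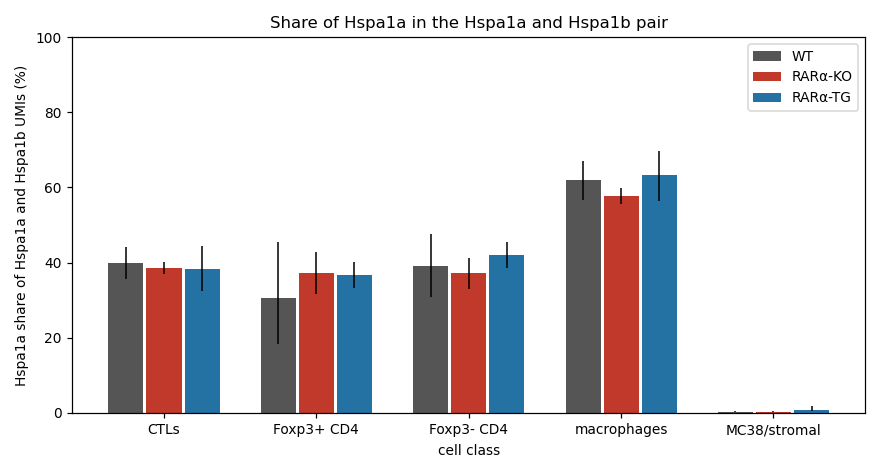
Hspa1a UMIs as a percent of Hspa1a and Hspa1b UMIs together, by cell class and genotype; bars start at 0 and lines are Clopper-Pearson 95% intervals. MC38 or stromal cells stay under 1% in each genotype, T cells lie near 40% and macrophages near 60%.

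To set depth aside, each cell was thinned to 1000 UMIs, which left 842 WT, 1178 RARα-KO and 111 RARα-TG CTLs. At least 1 UMI of the pair was then seen in 4.63% of WT CTLs (3.31% to 6.28%), 22.4% of RARα-KO CTLs (20.1% to 24.9%) and 22.5% of RARα-TG CTLs (15.1% to 31.4%). Unthinned, the shares were 11%, 39.3% and 43.4%. CTLs with 3 or more UMIs of the thinned 1000 were 1.19%, 6.37% and 6.31%. The UMIs were concentrated in few cells, since the top 5% of RARα-KO CTLs (59 cells) held 68.2% of the Hspa1a UMIs. In WT, 1 CTL held 66 of the 214 Hspa1a UMIs.

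**Figure D3:**
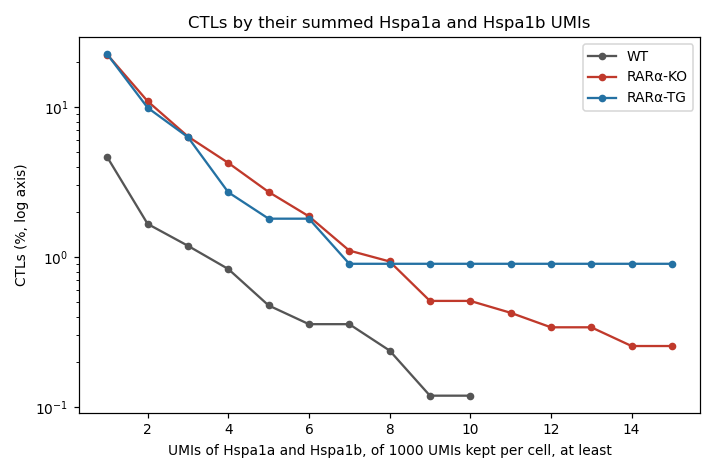
Percent of CTLs (log axis) that had at least the number of Hspa1a and Hspa1b UMIs on the x axis after thinning to 1000 UMIs per cell, for WT (gray), RARα-KO (red) and RARα-TG (blue). The lines of RARα-KO and RARα-TG start at 22.4% and 22.5% and that of WT at 4.63%; from 7 UMIs on, the flat RARα-TG line is 1 cell.

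CTLs that held the pair also held more of the other chaperones. In RARα-KO, the 264 CTLs with a UMI of the pair among their thinned 1000 had 742.4 CPM of Hsph1, against 240.7 CPM in the 914 CTLs without one, a log2 difference of 1.63 (1.34 to 1.91). The differences were 1.42 for Dnajb1, 1.30 for Hsp90aa1, 1.25 for Hspe1, 1.15 for Dnaja1, 0.98 for Hspd1 and 0.85 for Hspa8. The same 7 genes were above 0 in WT, from 0.77 to 2.54, and in RARα-TG, from 0.42 to 1.95, with each interval above 0. For the 26S proteasome list the difference was -0.13 (-0.24 to -0.03) in RARα-KO and 0.00 (-0.25 to 0.24) in WT, and for the TRiC chaperonin list it was 0.02 (-0.15 to 0.19) and 0.12 (-0.28 to 0.51). In RARα-TG the TRiC list was at -0.86 (-1.66 to -0.13). Immediate early genes differed by 0.41 (0.32 to 0.49) in RARα-KO, 0.40 (0.20 to 0.60) in WT and 0.27 (-0.05 to 0.59) in RARα-TG. In WT, RARα-KO and RARα-TG, cell cycle genes differed by -0.95 (-1.83 to -0.19), -0.42 (-0.71 to -0.14) and -0.98 (-2.17 to 0.04). Effector genes differed by 0.30 (0.18 to 0.43), -0.22 (-0.26 to -0.18) and 0.34 (0.16 to 0.51). Endoplasmic reticulum chaperones differed by 0.38 (0.15 to 0.61), 0.09 (-0.02 to 0.20) and 0.22 (-0.12 to 0.55). Cells share a library, and these differences are a description of the cells and not a test.

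Hspb1 encodes the small heat shock protein Hsp27, which holds unfolded proteins until Hsp70 can act on them. The gene (ENSMUSG00000004951, chromosome 5, 135887919 to 135889563) had 253 UMIs in 58 of all cells. Its ratio in CTLs of RARα-KO against WT was 3.51 (2.55 to 4.67), the 5th highest of 6571 genes, from 18.3 CPM (148 UMIs) against 1.60 CPM (9 UMIs). However, 133 of the 148 UMIs, or 89.9%, were in 1 cell. This cell had 2 Cd8a UMIs and no Cd4 UMI, but also 4 Foxp3 UMIs, and it lay in the cluster led by Foxp3. It held 128 UMIs of Hspa1a, 58 of Hspa1b and 99 of Hspa8 among 7273 in all, and 2.47% of its UMIs were mitochondrial. Without it, RARα-KO CTLs had 15 UMIs or 1.85 CPM of Hspb1, the ratio was 0.21 (-1.08 to 1.58), and the gene had 0.0127 UMIs per cell, under the limit of 0.1. The value of Hspa1a moved from 2.16 to 2.02 and that of Hspa1b from 2.23 to 2.20, so these did not rest on that cell.

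Elsewhere Hspb1 had few UMIs. It was seen in 1.27% to 3.33% of Foxp3-positive CD4 T cells of the 3 genotypes, with 3 to 7 UMIs in each, and in 1 RARα-TG cell of the Foxp3-negative ones. The MC38 or stromal cells with a hashtag had 0 UMIs of Hspb1 in each genotype. For the 272 WT cells, a floor of 3 counts allows a share of cells with a UMI of up to 1.10%. In Foxp3-positive CD4 T cells no difference between genotypes was detectable at these counts.

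Hsph1, Dnajb1 and Dnaja1 encode partners of Hsp70. Hsph1 (Hsp110) exchanges its nucleotide, and the DNAJ proteins bring it its clients. Hsph1 in CTLs was at 125.3 CPM (116.2 to 134.9), 310 CPM (297.9 to 322.3) and 434.7 CPM (383.7 to 490.7), giving ratios to WT of 1.31 (1.19 to 1.43) and 1.79 (1.58 to 2.0). A UMI was seen in 42%, 68.1% and 77% of the cells. Dnajb1, the HSF1-induced DNAJ protein of the nucleus and cytosol, was at 174.8, 285.1 and 439.7 CPM, with ratios of 0.71 (0.60 to 0.81) and 1.33 (1.13 to 1.53). Dnaja1 was at 730.3, 1059 and 1301 CPM, with ratios of 0.54 (0.48 to 0.59) and 0.83 (0.72 to 0.94). In each of the 3 genes the order over all CTLs was WT, RARα-KO, RARα-TG without overlap of the intervals. This order did not hold for all 3 in the T cell cluster led by S1pr1 and Tcf7, with 56 of the 113 RARα-TG CTLs. Over all its cells, RARα-KO and RARα-TG were at 1700 CPM (1605 to 1798) and 1353 CPM (1257 to 1455) for Dnaja1. For Dnajb1 their intervals overlapped, at 514 and 545 CPM, and for Hsph1 the order held, at 347 and 560 CPM.

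In the other classes, Hsph1 ratios of RARα-KO were 1.04 in Foxp3-positive and 0.80 in Foxp3-negative CD4 T cells, 1.76 in macrophages (45.1 against 153.0 CPM) and 0.25 in MC38 or stromal cells. Those of RARα-TG were 1.90, 1.71, 0.61 (-0.36 to 1.55) and 0.99. Dnajb1 of RARα-KO was 0.84 higher in macrophages (0.46 to 1.23) and -0.03 in MC38 or stromal cells (-0.08 to 0.02), and in RARα-TG macrophages it was at 89.4 CPM, against 133.6 CPM in WT, a ratio of -0.58 whose interval reached 0.12. Dnaja1 of RARα-KO was at 0.04 in Foxp3-positive CD4 T cells (-0.14 to 0.23) and -0.27 in MC38 or stromal cells (-0.36 to -0.19), where it was 390.5 CPM against 471.5 CPM.

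Hspa8 and Hsp90aa1 differed less between genotypes than the inducible Hsp70 pair in CTLs. Hspa8 encodes the constitutive Hsc70 and Hsp90aa1 the inducible form of cytosolic Hsp90, the chaperone of many kinases and steroid receptors. Hspa8 was seen in 99.8% of RARα-KO CTLs and all others, and it differed least, with 2724 CPM (2681 to 2767), 3386 CPM (3346 to 3426) and 4158 CPM (3997 to 4324), or ratios of 0.31 and 0.61. Its value in Foxp3-negative CD4 T cells of RARα-KO was 3497 CPM, against 3398 CPM in WT, a ratio of 0.04 (-0.05 to 0.13). In MC38 or stromal cells it went the other way, with 5351, 4980 and 4399 CPM, or ratios of -0.10 (-0.13 to -0.08) and -0.28 (-0.35 to -0.21). Hsp90aa1 was at 330.8, 584.5 and 821.4 CPM in CTLs, with ratios of 0.82 (0.74 to 0.90) and 1.31 (1.17 to 1.46). It was also higher in RARα-KO macrophages, at 685.8 CPM against 359.3 CPM, by 0.93 (0.70 to 1.17).

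Hspd1 and Hspe1 encode Hsp60 and Hsp10, which together form the folding chamber of the mitochondrial matrix. The genes lie head to head on chromosome 1, with gene models that overlap by 96 bases. Hspd1 was at 262.1 CPM in WT CTLs (248.9 to 275.9), 393.9 CPM if RARα-KO and 514.4 CPM if RARα-TG, with ratios of 0.59 (0.50 to 0.68) and 0.97 (0.79 to 1.15). Hspe1 was at 368.9, 526.2 and 706.9 CPM, with ratios of 0.51 (0.44 to 0.59) and 0.94 (0.78 to 1.09). In RARα-KO macrophages neither differed detectably, at 0.09 (-0.36 to 0.55) and 0.20 (-0.14 to 0.56). Hspe1 was at 378 CPM in RARα-TG macrophages, against 184 CPM in WT, a ratio of 1.04 (0.62 to 1.45) and the highest of the 9 genes in that comparison, while Hspd1 was at 0.31 (-0.32 to 0.92). In RARα-TG the pair was at 0.28 (-0.07 to 0.64) and 0.11 (-0.17 to 0.39) in Foxp3-positive CD4 T cells, and at 0.90 (0.54 to 1.27) and 0.97 (0.65 to 1.30) in Foxp3-negative ones.

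**Figure D4:**
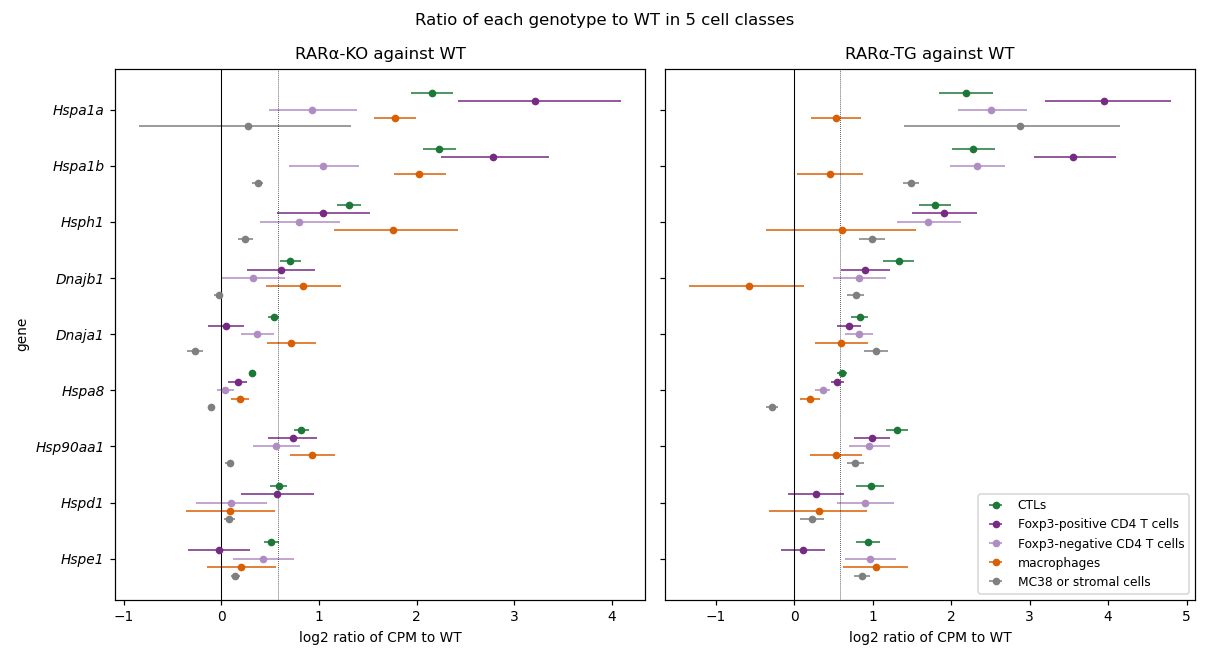
Log2 ratio of CPM of RARα-KO (left) and RARα-TG (right) to WT for 9 genes in 5 cell classes; lines are exact binomial 95% intervals, the solid line is no difference and the dotted line is 1.5-fold. Hspa1a, Hspa1b and Hsph1 lie farthest right in T cells, RARα-KO macrophages lie with the T cells for these genes, and MC38 or stromal cells of RARα-KO lie near 0.

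Counted over the set, 7 of 10 genes were higher in RARα-KO than in WT CTLs, a direction called in 4.14% of 6571 genes, and none was lower (2.54%). Without the single Hspb1 cell the count was 5 of 9, since Hspb1 fell under the limit and Hspd1 went from 0.59 to 0.58, just short of 1.5-fold. In RARα-TG CTLs 9 of 9 that passed the limit were higher, against 12.6% of all genes, and none lower (13.8%). The median ratio was 0.76 in RARα-KO and 1.31 in RARα-TG, against 0.02 and 0.01 over all genes. Because the genes were chosen with a ratio of this kind known, these counts describe them and support nothing further.

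Hspb1 missed the limit in all classes below, so the counts are of 9. In Foxp3-positive CD4 T cells 5 genes were higher in RARα-KO (12.7% of all genes; 11.3% were lower) and 6 in RARα-TG (12.7%, with 10.4% lower). In Foxp3-negative CD4 T cells 3 were higher in RARα-KO (9.3%, with 14.4% lower) and 8 in RARα-TG (12.0%, with 15.1% lower). Macrophages had 6 higher genes in RARα-KO (15.5%, with 14.9% lower) and 3 in RARα-TG (21.6%, with 22.5% lower). MC38 or stromal cells had 0 in RARα-KO (6.47%, with 3.7% lower) and 7 in RARα-TG (19.0%, with 18.3% lower), where the RARα-TG class was only 19 cells. None of the genes was lower by 1.5-fold in any of these comparisons.

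Other genes of protein folding were examined in CTLs by lists. Of all genes in RARα-KO CTLs, 4.14% were higher and 2.54% lower. Of 18 further Hsp70 and DNAJ genes over the limit, 1 was higher in RARα-KO and none lower (median ratio 0.13), and Dnaja4 had the highest value at 0.64 (0.31 to 0.98). In a list of 23 genes, mostly Hsp90 genes and cochaperones, 2 were higher. The HSF1-induced cochaperone Chordc1 was at 0.63, while P4ha1, at 0.88, encodes a collagen prolyl hydroxylase of the endoplasmic reticulum and is no Hsp90 cochaperone. Hspbp1, which releases nucleotide from Hsp70, was the 1 lower gene of the list at -0.80 (-1.03 to -0.57). The ubiquitin ligase Stub1 was at -0.40. None of 8 subunits of the cytosolic chaperonin TRiC, 6 of prefoldin, 11 genes of mitochondrial protein import and quality control, 19 of the endoplasmic reticulum and 25 of the proteasome reached 1.5-fold in RARα-KO CTLs. Their median ratios lay between -0.12 (prefoldin) and 0.18 (mitochondrial genes). Hsf1 was at 26.6 CPM in WT and 30.1 CPM in RARα-KO, a ratio of 0.18 (-0.12 to 0.49). None of the 8 other small heat shock genes passed the limit in CTLs.

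In RARα-TG CTLs, where 12.6% of all genes were higher and 13.8% lower, 3 of the 18 Hsp70 and DNAJ genes were higher and 1 was lower, with Dnaja4 at 1.70 and Hspa2 at 1.28. Of the 23 genes of the Hsp90 list 8 were higher, among them Bag3, an HSF1-induced partner of Hsp70, at 1.87, and 1 was lower. Of the TRiC and proteasome genes 0 of 8 and 0 of 25 reached 1.5-fold either way, and 3 of 19 genes of the endoplasmic reticulum were higher, among them Hyou1 at 0.59 (0.03 to 1.11).

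Genes of other stress responses moved beside these in RARα-KO. Of 7 ubiquitin and stress response genes over the limit 5 were higher (4.14% of all genes) and none lower (2.54%). Among the higher were Gadd45g at 1.21 (0.87 to 1.56) and Ppp1r15a, which restores translation after stress, at 0.95 (0.72 to 1.19). Sqstm1 was at -0.16. In RARα-TG CTLs 1 gene of this list was higher (12.6% of all genes) and 3 were lower (13.8%), with Gadd45b at -1.62 (-2.13 to -1.14) and Atf3, from 1 UMI, at -3.92 (-9.23 to -1.42). Of 15 immediate early genes, which respond to activation and to tissue handling alike, 7 were higher in RARα-KO (4.14% of all genes) and none lower (2.54%). Fos was at 1.92 (1.51 to 2.35) and Jun at 1.61 (1.31 to 1.93). Summed, the immediate early genes were at 4023, 4833 and 3805 CPM in CTLs. In RARα-TG CTLs 4 of them were higher (12.6% of all genes) and 5 lower (13.8%), with Fos at 1.29 (0.37 to 2.13) and Ier3 at -2.49 (-4.13 to -1.25). The part of handling or activation in the chaperone values was not tested. The median mitochondrial share of CTLs was 0.954%, 0.863% and 1.12%.

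T cells were then divided into clusters found without the 10 genes or the other stress lists, and named by leading genes. Of 9 clusters with 30 or more cells in both WT and RARα-KO, Hspa1a, Hspa1b and Hsph1 were higher in RARα-KO in 9, each with an interval above 0. The ratios ran from 0.69 to 2.79 for Hspa1a, 1.09 to 3.14 for Hspa1b and 0.39 to 1.94 for Hsph1. RARα-TG was higher than WT for the 3 genes in 4 of 4 clusters that had 30 or more cells of both. These 4 clusters held 5, 5, 50 and 47 of the 842 WT CTLs. Clusters led by Xcl1, Gzma, Ifit1, Gzmf, Serpine2 and Hist1h1b had too few RARα-TG cells, so RARα-TG was not compared with WT in them. Hsp90aa1 was higher in RARα-KO in 9 of 9 clusters and Hspa8 in 6 of 9, with medians of 0.61 and 0.17. Dnajb1 and Hspe1 were higher in 9 of 9, Dnaja1 in 8 and Hspd1 in 7. The interval lay above 0 in 5 clusters for Dnajb1, 3 for Hspe1, 5 for Dnaja1 and 4 for Hspd1. Their median ratios were 0.50, 0.25, 0.16 and 0.42, against 0.71, 0.51, 0.54 and 0.59 in the sums over CTLs. CTLs were spread differently over the clusters, with 325 of 842 WT CTLs in the cluster led by Gzmf, Gzmd and Gzme and 454 of 1179 RARα-KO CTLs in that led by Serpine2, Ccl5 and Prf1, and the ratios given are those within clusters.

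For each of the 9 genes other than Hspb1 the highest RARα-KO to WT ratio was in cluster 1, led by Gzma, Ifitm1 and Ccl5. There Hspa1b was at 45.1 CPM in WT (32.2 to 61.4) and 396 CPM in RARα-KO (356 to 440), and Hspd1 was at 189 and 455 CPM. The highest levels of Hspd1, Hspe1, Hspa8 and Hsp90aa1 in WT and RARα-KO were in cluster 0, which was led by Xcl1, Ifng and Ccl1. Its Hspd1 level was 562 CPM in WT (501 to 629) and 907 CPM in RARα-KO (855 to 962), and the next highest clusters were at 305 CPM in WT (cluster 16) and 455 CPM in RARα-KO (cluster 1). In both WT and RARα-KO, Hspa8 and Hsp90aa1 were lowest in cluster 10, led by Gzmf, and Hspa1b, Hsph1, Dnajb1 and Dnaja1 were lowest in cluster 12 of dividing cells, led by Hist1h1b and Pclaf, where Hspa1b was 27.8 CPM in WT and 129 CPM in RARα-KO. In RARα-TG, the cluster led by Tnfsf8, Tnfsf11 and Cd4 had the highest Hspa1b level, 1261 CPM (1129 to 1406), followed by cluster 4, led by Rln3, Klrg1 and Laptm4b, at 802 CPM.

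**Figure D5:**
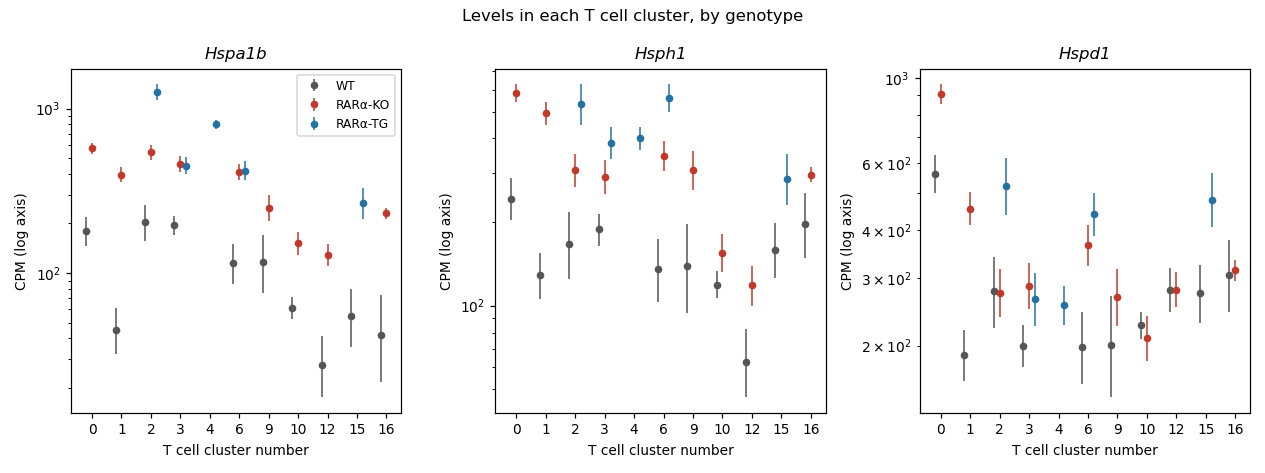
Level in CPM (log axis) of Hspa1b, Hsph1 and Hspd1 in each T cell cluster with 30 or more cells of a genotype; points are WT (gray), RARα-KO (red) and RARα-TG (blue) and bars are Poisson 95% intervals. Hspa1b and Hsph1 are above WT in RARα-KO in each of the 9 shared clusters, whereas Hspd1 in RARα-KO is at 275 CPM against 277 CPM in cluster 2 and 209 CPM against 226 CPM in cluster 10.

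Over 24 combinations of cluster and genotype, the genes with levels most like the sum of Hspa1a and Hspa1b were, by Pearson r of log2(CPM + 10) and leaving out the pair, Chordc1 (0.87), Hsp90aa1 (0.85), Hsph1 (0.84), Rgs1 (0.80) and Bag3 (0.79), of 5881 genes. The pair itself led the ranking. Hspa8 had r = 0.75, Dnaja1 0.72, Dnajb1 0.71, Hspe1 0.50 and Hspd1 0.47. The points share 1 library and 3 mouse genotypes, so they are not independent.

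Clone size was also set beside the levels. WT CTLs whose clonotype had 1 cell held 7.59 CPM of Hspa1b (2.46 to 17.7), those of 2 to 9 cells 68.2 CPM (55.5 to 83) and those of 10 or more cells 61.3 CPM (53 to 70.5). In RARα-KO the single-cell clonotypes were highest, with 421 CPM (367 to 480), 347 CPM (316 to 381) and 252 CPM (237 to 267). The WT value of single-cell clonotypes rested on 5 UMIs in 121 cells. In RARα-KO, the cell with 133 Hspb1 UMIs gave 58 of the 446 Hspa1b UMIs of clonotypes of 2 to 9 cells. Hsph1 was at 103 CPM, 128 CPM and 127 CPM in WT and at 425 CPM, 333 CPM and 302.2 CPM in RARα-KO. For both genes RARα-KO CTLs were above WT at each clone size.

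T cell subsets could be tested, because each of the 3 tumors gave both subsets. The test was edgeR's quasi-likelihood test on UMIs summed per tumor and subset, with the tumor as a block, and adjusted p-values are Benjamini-Hochberg values over all genes. Between CD4 T cells and CTLs, 2 of 9 genes were higher in CD4 T cells (7.5% of 8537 genes) and 2 were lower (5.22%). Hspa1a was at 65.5, 231 and 504 CPM in CD4 T cells, and at 38.2, 170.3 and 174.5 CPM in the CTLs of the same tumors, a log2 difference of 0.80 ± 0.21 (SE, adjusted p = 0.0386). Hspa1b was higher by 0.87 ± 0.19 (adjusted p = 0.0186). CD4 T cells were above CTLs in 3 of 3 tumors for both genes.

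The mitochondrial pair went the other way. Hspd1 was at 201, 251 and 299 CPM in CD4 T cells and at 263, 395 and 515 CPM in CTLs, a difference of -0.71 ± 0.14 (edgeR adjusted p = 0.0146), and Hspe1 differed by -0.68 ± 0.15 (edgeR adjusted p = 0.0191). CTLs were higher in 3 of 3 tumors for both. Hsph1, Dnajb1, Dnaja1, Hspa8 and Hsp90aa1 did not pass, with differences from -0.23 to 0.08, and Hspb1 was under the count filter. The Hspa1a and Hspa1b calls ended without the WT tumor (edgeR adjusted p = 0.0978 and 0.0790), without the block (0.440 and 0.433) and with thinned cells (0.169 and 0.109), and that of Hspa1a without the RARα-TG tumor (0.0513). Those of Hspd1 and Hspe1 ended without the WT tumor (edgeR adjusted p = 0.0613 and 0.0743), without the RARα-KO tumor (0.0617 and 0.0727) and without the block (0.110 and 0.105).

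Foxp3-positive and Foxp3-negative CD4 T cells were compared in the same way. A Foxp3 UMI can be missed in a cell that makes the gene, so this split is not one of regulatory T cells from all others. The markers Foxp3, Ikzf2, Il2ra and Ctla4 summed to 1291, 730 and 1330 CPM in Foxp3-negative cells. In Foxp3-positive cells they summed to 4251, 3880 and 4795 CPM. Hspa1a was at 25.1, 231.7 and 385.9 CPM in Foxp3-positive cells of WT, RARα-KO and RARα-TG and at 120.7, 230.0 and 688.8 CPM in Foxp3-negative ones, a difference of -0.76 ± 0.20 (edgeR adjusted p = 0.00624). Hspa1b differed by -0.59 ± 0.17 (edgeR adjusted p = 0.0170) and Hsph1 by -0.42 ± 0.14 (edgeR adjusted p = 0.0449). These were 3 of 9 genes, all lower in Foxp3-positive cells, a direction called in 7.47% of 6534 genes, and none was higher (8.43%). The difference in Hspa1a was seen in WT and RARα-TG, while in RARα-KO the subsets were level. The calls of all 3 ended without the WT tumor (edgeR adjusted p = 0.148 to 0.335), without the block (0.651 to 0.754) and with DESeq2 (0.478 to 0.707). That of Hsph1 also ended without the RARα-KO tumor (edgeR adjusted p = 0.109) and without the RARα-TG tumor (0.113). The median depth of Foxp3-positive cells was 3993, 4950 and 4073 UMIs, against 3858, 4515 and 3794 in Foxp3-negative ones. With thinned cells the 3 calls ended too (edgeR adjusted p = 0.0819 to 0.248).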

How the data were processed

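UMI counts per gene and barcode were deposited by the authors for all 730308 barcodes, not normalized, with UMI counts of 3 hashtags and a table of TCR contigs. They aligned reads to mm10 with Cell Ranger, version 6.1.0 per the submitters' processing notes; the matrix header names another major version. The labels also call the tissue spleen; the tumor protocol was followed. The 10 genes and all lists were chosen with earlier results of these data known.

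Cells were called anew in Python 3.11.15 after the steps of Cell Ranger, with 3000 expected cells. The first step gave 2433 cells, and 3152 of 3167 further barcodes, each of at least 500 UMIs, differed from ambient RNA at a false discovery rate of 0.01. Together they held 96.4% of all gene UMIs. HTODemux of Seurat 5.3.0 (0.99 quantile) assigned genotypes and removed doublets between genotypes; doublets within a genotype remain. Cells were clustered with scanpy 1.11.5 (Leiden, resolution 1, 30 components, 2000 genes) without TCR segments and the stress lists. A T cell cluster had a clonotype in over 50% of its barcodes. No mitochondrial limit was set.

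UMIs were summed per class and genotype and divided by all gene UMIs (CPM). Sums have exact Poisson, shares Clopper-Pearson and ratios exact binomial intervals, all at 95%. Where 1 genotype had no UMI, a floor of 3 UMIs per class was used. Subsets were tested with edgeR 4.0.16 in R 4.3.3 at a false discovery rate of 0.05, with tumor as the block because both subsets come from the same tumor. DESeq2 1.42.0 was an alternative. On simulated counts for CD4 T cells against CTLs (8537 genes), 91% of 200 genes changed 3-fold were called, and for the Foxp3 comparison (6534 genes) 97.5%. The text names the 10 genes; of each list the 2 highest and 2 lowest CTL ratios could be named; and the 5 genes most like the Hspa1a and Hspa1b sum. Cell classes, hashtag purity, thinning, calling step, mitochondrial share and CPM base were varied.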

Additional observations from a re-analysis of the deposited data

Results flagged for a closer look

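Differences in opposite directions were found between CTLs and MC38 or stromal cells. Hspa8 of RARα-KO against WT had a log2 ratio of -0.10 in MC38 or stromal cells and 0.31 in CTLs, and Dnaja1 had -0.27 and 0.54. In RARα-TG against WT, Hspa8 had -0.28 and 0.61. Each interval lay on its own side of 0, but with 1 sample per genotype the difference between the classes was not tested. Under other settings the Dnaja1 ratio of RARα-KO in MC38 or stromal cells ran from -0.28 to 0.38. Its sign thus did not hold under all of them. The Hspa8 ratio in these cells stayed below 0, from -0.24 to -0.06 in RARα-KO and from -0.28 to -0.19 in RARα-TG.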

How the results depend on the processing

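Recounts of the higher genes or clusters under other settings stayed within 1.5 times of the count reported in 53 cases and moved further in 6. Of the ratios of single genes between genotypes, 398 stayed within their interval and 144 moved out of it. A further 1, of those at 1.5-fold or more, changed sign. Changes of sign in smaller ratios are held in the other counts. One such ratio was Dnaja1 of RARα-KO in MC38 or stromal cells, which ran from -0.28 to 0.38. Thinning to 1000 UMIs gave 6 higher genes in place of 3 in Foxp3-negative CD4 T cells of RARα-KO, 1 in place of 0 in MC38 or stromal cells of RARα-KO and 4 in place of 7 in those of RARα-TG. Without mitochondrial, ribosomal protein and receptor genes in the CPM base, RARα-TG macrophages had 5 in place of 3. With only cells whose top hashtag held 90% or more, 3 in place of 5 were higher in Foxp3-positive CD4 T cells of RARα-KO and 2 in place of 0 in MC38 or stromal cells of RARα-KO. That setting left 17 of 842 WT CTLs, turned the Hspb1 ratio of RARα-KO CTLs from 3.51 to -0.0027, and left too few WT cells for Foxp3-negative CD4 T cells and macrophages and too few RARα-TG cells for MC38 or stromal cells, so these were not run. The cause of these changes was not tested.

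The CTL ratio of RARα-KO ran from 1.39 to 4.64 for Hspa1a and from 1.55 to 4.37 for Hspa1b, and that of RARα-TG from 0.71 to 4.21 and from 1.27 to 4.27, with the highest value of each under the hashtag limit. Leaving out the Hspb1 cell or the cluster led by Gzmf was chosen after seeing the data.

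Between CD4 T cells and CTLs, 1086 genes were called, 717 with DESeq2, 1796 without a filter, 415 with thinned cells and 442 to 1445 leaving out 1 tumor each. Between the Foxp3 subsets, 1039 were called, 369 with DESeq2, 386 with thinned cells and 691 to 922 leaving out 1 tumor. Without the replicate block the counts were 826 and 513. In tests of single genes of the set, 28 fits under another setting lost a call and 1 gained one. The gain was Hspd1 between the Foxp3 subsets without the RARα-KO tumor (edgeR adjusted p = 0.0191). Among genes with a call in the main or the other fit, 0 changed direction. Changes of sign without a call were not counted. Low counts limit Hspb1 in T cells, and few cells limit the RARα-TG values of 113 CTLs and 19 MC38 or stromal cells.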
